A study of Mus musculus with 4 samples.

Results

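The 9 genes described here encode enzymes of serine synthesis and of folate-dependent one-carbon metabolism, and they were taken by name from a table of 43432 genes counted in 4 mouse neuroblastoma tumours. Phgdh, Psat1 and Psph carry out serine synthesis, Shmt2, Mthfd2, Mthfd1l and Aldh1l2 form the mitochondrial folate arm, and Shmt1 and Mthfd1 the cytosolic arm. The question was how levels of the mitochondrial members compared with those of the cytosolic members in each tumour, and how all 9 compared between 2 tumours whose hosts received small extracellular vesicles (sEVs) on top of dinutuximab and 2 whose hosts received dinutuximab alone.

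The mice were female C57BL/6 bearing subcutaneous 9464D-GD2 tumours, a mouse neuroblastoma line that displays the ganglioside GD2 and whose parent line arose in a mouse with a human MYCN transgene under a tyrosine hydroxylase promoter. The sEV group received 25 µg dinutuximab, a monoclonal antibody against GD2, with 20 µg sEVs made by 9464D-GD2 cells, and the dinutuximab group received 25 µg dinutuximab, in each case 2 times per week for 5 treatments. All 4 tumours therefore came from antibody-treated hosts, and tumours without the antibody were not analysed here. The labels number the tumours 3 and 4 in both groups, and the series calls them biological replicates without saying what the numbers mean.

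In serine synthesis, PHGDH oxidises the glycolytic intermediate 3-phosphoglycerate, PSAT1 transaminates the product, and PSPH removes the phosphate to give serine. Serine hydroxymethyltransferases then split serine into glycine and a folate-bound carbon unit, SHMT2 in mitochondria and SHMT1 in the cytosol. In mitochondria the unit is oxidised by MTHFD2 and released as formate by MTHFD1L, or oxidised fully by ALDH1L2, and in the cytosol MTHFD1 turns formate back into folate-bound units used for purines and thymidylate. Many tumours run the cycle from mitochondria to cytosol. The transcription factor ATF4 responds to amino acid shortage and other stresses. It is known to induce several genes of serine synthesis and of the mitochondrial folate arm.

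Promoter sequences of the members that the comparison turns on are shown with the cytosolic Shmt1 for contrast. They come from RefSeq on GRCm38.p6, run from 250 bases before to 50 bases after a gene start, and are written 5′ to 3′ on the gene's strand, which is the minus strand for all 5. Capitals mark the CCAAT box, searched on both strands as CCAAT or ATTGG.
Mthfd2, chr6:83317555-83317854: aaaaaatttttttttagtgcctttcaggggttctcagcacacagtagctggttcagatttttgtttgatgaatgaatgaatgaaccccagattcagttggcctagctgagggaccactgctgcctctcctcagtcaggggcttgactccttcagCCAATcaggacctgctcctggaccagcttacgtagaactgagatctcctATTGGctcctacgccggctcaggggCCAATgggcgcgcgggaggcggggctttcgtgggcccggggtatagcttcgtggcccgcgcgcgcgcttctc
Psat1, chr19:15925010-15925309: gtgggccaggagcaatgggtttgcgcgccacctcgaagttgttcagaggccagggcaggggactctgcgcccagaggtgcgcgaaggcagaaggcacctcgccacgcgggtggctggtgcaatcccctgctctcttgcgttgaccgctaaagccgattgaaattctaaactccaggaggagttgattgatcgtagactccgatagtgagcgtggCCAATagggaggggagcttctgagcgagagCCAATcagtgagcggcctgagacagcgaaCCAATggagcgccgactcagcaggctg
Phgdh, chr3:98339920-98340219: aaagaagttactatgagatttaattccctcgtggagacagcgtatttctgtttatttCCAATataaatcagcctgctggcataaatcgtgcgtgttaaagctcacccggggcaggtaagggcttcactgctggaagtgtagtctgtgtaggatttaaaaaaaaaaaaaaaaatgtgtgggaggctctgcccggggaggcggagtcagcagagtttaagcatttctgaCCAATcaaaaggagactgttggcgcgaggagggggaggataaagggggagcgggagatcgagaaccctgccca
Shmt2, chr10:127522395-127522694: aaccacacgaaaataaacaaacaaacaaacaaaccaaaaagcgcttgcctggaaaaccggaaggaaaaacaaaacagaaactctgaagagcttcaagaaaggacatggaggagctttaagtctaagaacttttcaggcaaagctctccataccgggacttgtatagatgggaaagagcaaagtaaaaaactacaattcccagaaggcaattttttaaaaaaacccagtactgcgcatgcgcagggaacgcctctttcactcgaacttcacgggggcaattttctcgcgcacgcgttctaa
Shmt1, chr11:60811216-60811515: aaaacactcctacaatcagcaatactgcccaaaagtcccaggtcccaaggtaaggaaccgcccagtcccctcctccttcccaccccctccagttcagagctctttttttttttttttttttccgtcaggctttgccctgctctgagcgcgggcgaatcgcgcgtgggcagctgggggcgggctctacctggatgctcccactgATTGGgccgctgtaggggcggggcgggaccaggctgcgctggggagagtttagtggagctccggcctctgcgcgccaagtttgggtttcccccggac
Windows were found for 8 of the 9 members, 9 windows in all because Psat1 has 2 annotated starts. A CCAAT box stood in a window of 6 of these 8 members. Psat1 counts among them by its upstream window, as its other window held 0. Counted per window rather than per gene, the share was 37.4% of all 32851 promoter windows of 300 bases. Mthfd2 and the upstream window of Psat1 held 3 matches each, a number reached by 3.37% of all windows, whereas the Shmt2 window held 0. The ATF4 composite element TGATGNAA and the E-box CACGTG, which MYC proteins bind, were also searched on both strands, and 0 of the 8 members held either one, against 3.97% and 7.15% of all windows. These matches describe the letters of the windows only.

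The libraries held 26164711 and 28187573 counts in sEV tumours 3 and 4, against 26312447 and 24452699 in dinutuximab tumours 3 and 4. Of 9 neuroblastoma markers, 4 had at most 3 counts in every library, among them Dbh with 0 in all 4, while Hand2 had between 3532 and 4956 counts and Isl1 between 404 and 618. The labelled tissue was thus visible in only some of its markers. The libraries are bulk tissue, so that fewer cells of a type and less RNA per cell cannot be told apart.

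The main pattern was a set of 5 members with less RNA in both sEV tumours than in either dinutuximab tumour, namely Phgdh, Psat1, Psph, Shmt2 and Mthfd2. The cytosolic Shmt1 and Mthfd1 and the mitochondrial Mthfd1l and Aldh1l2 overlapped between the groups. None of the 9 passed the test over all genes (quasi-likelihood test of edgeR, p adjusted by Benjamini-Hochberg between 0.463 for Mthfd2 and 0.989 for Shmt1), and of all 13823 genes tested 0 passed (0%). At an unadjusted p under 0.05, 3 members were on the lower side, Mthfd2, Psat1 and Phgdh, and 0 on the higher side, against 3.1% and 2.47% of all genes. The 5 members that lay lower without overlap compare with 16.5% of all genes, and 0 members lay higher without overlap, against 18.1% of all genes. The members were chosen with earlier results of these data known, so these counts beside the shares of all genes are no independent evidence. limma-voom also called 0 of 9 members and 0 genes, while DESeq2 called 55 genes (0.398%), 2 of them members, Psat1 and Mthfd2.

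Levels of different genes were compared as RPKM, the CPM of a gene divided by its exon length in kilobases, where CPM is the count scaled to the TMM-adjusted size of the library. Averaged over the 4 tumours, Shmt2 was at 81.2 RPKM, Phgdh at 76.4, Psat1 at 64.5 and Mthfd1l at 49.4, each above at least 91.8% of the genes tested. Mthfd1 followed at 27.6 RPKM, Shmt1 at 17.1, Mthfd2 at 16.4, Psph at 5.79 and Aldh1l2 at 2.85 RPKM. The ranges over the 4 tumours overlapped between neighbours from Shmt2 down to Mthfd1l, and between Shmt1 and Mthfd2. They did not overlap between Mthfd1l and Mthfd1, between Mthfd1 and Shmt1, between Mthfd2 and Psph, or between Psph and Aldh1l2. The members thus spanned abundant enzymes and one, Aldh1l2, that exceeded only 36.4% of tested genes.

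**Figure D1:**
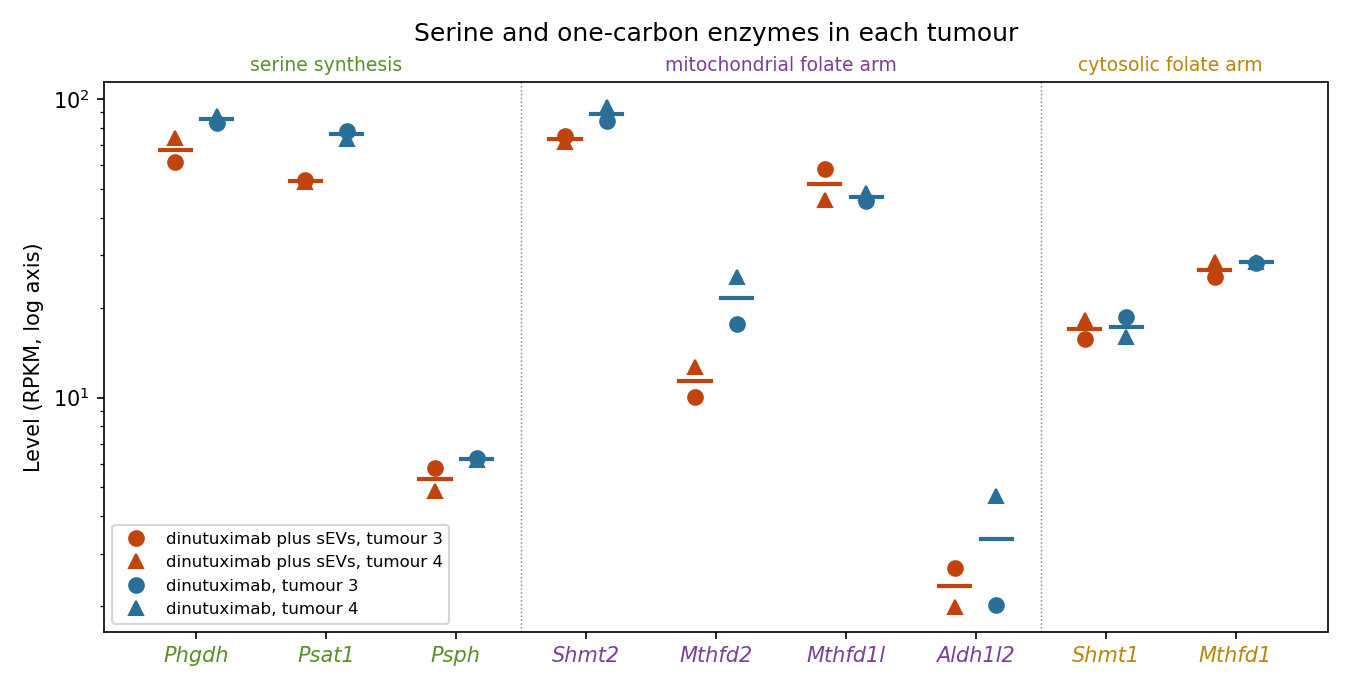
Level of each enzyme gene per tumour in RPKM on a log axis, with sEV tumours left of dinutuximab tumours, circles for tumours numbered 3, triangles for tumours numbered 4, and bars for the mean of 2. Mthfd2 lies at 10.02 and 12.6 with sEVs against 17.6 and 25.4 without, while Shmt1 and Mthfd1 overlap between the groups.

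Phgdh, whose product commits glycolytic carbon to serine, had 152 and 183 CPM in sEV tumours 3 and 4, against 207 and 218 CPM in dinutuximab tumours 3 and 4. Both sEV tumours lay below both dinutuximab tumours, and the gap between the nearest tumours of the groups was narrower than that between the sEV tumours. The means were 168 ± 21.8 CPM with sEVs and 212 ± 7.69 CPM without (SD, n = 2 each), a log2 fold change of -0.34 ± 0.14 (SE; edgeR adjusted p = 0.861). Without sEV tumour 3 it was -0.22, and without sEV tumour 4 it was -0.48. Phgdh has 9 annotated processed pseudogenes that match its transcript at 95% identity or more over at least 100 bases, so reads shared with them are uncertain. The nearest in sequence, Gm7901, is 98.7% identical over 1597 bases and had 31 and 49 counts in the sEV tumours, against 49 and 49 in the dinutuximab tumours.

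Psat1, the aminotransferase of the pathway, had 228 and 223 CPM in sEV tumours 3 and 4, against 333 and 313 CPM in dinutuximab tumours 3 and 4. The tumours of each group lay close together and the groups were well separated. The means were 226 ± 3.21 CPM with sEVs and 323 ± 14.2 CPM without (SD, n = 2 each). The log2 fold change was -0.52 ± 0.12 (SE), or 1.43-fold lower with sEVs, at an unadjusted p of 0.00273 and an edgeR adjusted p of 0.535. Over 13 alternatives the fold change ran from -0.56 to -0.47 and the adjusted p from 0.037 to 0.854, and 2 of them called Psat1: DESeq2 (adjusted p = 0.0488) and edgeR with no low-count filter (adjusted p = 0.037), a fit that called 1.19% of 22003 genes.

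Psph, the phosphatase that ends serine synthesis, had 25.2 and 21.1 CPM in sEV tumours 3 and 4, against 27.2 and 26.7 CPM in dinutuximab tumours 3 and 4. The dinutuximab tumours were almost equal and both sEV tumours lay below them, one of them only slightly. The log2 fold change was -0.22 ± 0.16 (SE; edgeR adjusted p = 0.909), and it was -0.36 without sEV tumour 3 and -0.10 without sEV tumour 4. On the opposite strand Cct6a covers 10.4% of its exon bases and had between 6167 and 8010 counts, so the Psph count depends on a strand setting not given in the sources used here. Summed over the 3 synthesis members, the level was 121 and 131 RPKM in the sEV tumours, against 168 and 167 RPKM in the dinutuximab tumours.

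Mthfd2, the mitochondrial methylene-folate dehydrogenase and cyclohydrolase, had the log2 fold change of largest size among the 9. It had 35.0 and 44.0 CPM in sEV tumours 3 and 4, against 61.5 and 88.5 CPM in dinutuximab tumours 3 and 4. The groups did not overlap, although the dinutuximab tumours differed 1.44-fold from each other and the sEV tumours 1.26-fold. The means were 39.5 ± 6.41 CPM with sEVs and 75.0 ± 19.1 CPM without (SD, n = 2 each). The log2 fold change was -0.93 ± 0.20 (SE), or 1.9-fold lower with sEVs. Mthfd2 stood at rank 35 of 13823 genes by p, with an unadjusted p of 0.00141 and an edgeR adjusted p of 0.463.

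Over 13 alternatives the Mthfd2 fold change kept its sign, between -1.16 and -0.64, with adjusted p between 9.61e-06 and 0.854. It was called in 5 of them. With every tumour kept, these were DESeq2 (adjusted p = 0.00449), edgeR with no low-count filter (adjusted p = 9.61e-06) and edgeR with the label number as a block (adjusted p = 0.00582). The remaining calls came without sEV tumour 3 (-0.78) and without sEV tumour 4 (-1.1). In those fits the sEV tumour left alone was taken to vary as the dinutuximab tumours do. Mthfd2 was not called without dinutuximab tumour 3 (-1.16) or without dinutuximab tumour 4 (-0.64). In the same fits the share of all genes called was 0.398% with DESeq2, 1.19% with no low-count filter, 0.485% with the block, 0.93% without sEV tumour 3, 2.23% without sEV tumour 4 and 0% without either dinutuximab tumour.

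Shmt2, the mitochondrial hydroxymethyltransferase and the most abundant member per length, had 234 and 222 CPM in sEV tumours 3 and 4, against 263 and 292 CPM in dinutuximab tumours 3 and 4. The groups did not overlap, and the gap between their nearest tumours was about as wide as that between the dinutuximab tumours. The means were 228 ± 8.21 CPM with sEVs and 277 ± 20.4 CPM without (SD, n = 2 each). The log2 fold change was -0.28 ± 0.13 (SE; unadjusted p = 0.0582, edgeR adjusted p = 0.885).

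Mthfd1l, the mitochondrial formate-releasing enzyme, was the only member with a positive fold change. It had 258 and 203 CPM in sEV tumours 3 and 4, against 202 and 214 CPM in dinutuximab tumours 3 and 4. Only sEV tumour 3 stood above the others, and the remaining 3 tumours were alike. The log2 fold change was 0.14 ± 0.15 (SE; edgeR adjusted p = 0.938), and without sEV tumour 3 it was -0.05.

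Aldh1l2, which oxidises the folate-bound unit to carbon dioxide in mitochondria, had 20.2 and 14.9 CPM in sEV tumours 3 and 4, against 15.1 and 35.3 CPM in dinutuximab tumours 3 and 4. Dinutuximab tumour 4 alone was high, 2.33-fold above dinutuximab tumour 3, which lay between the sEV tumours. The log2 fold change of -0.52 ± 0.35 (SE; edgeR adjusted p = 0.909) rested on that tumour, and without it the value was 0.22, against -1.004 without dinutuximab tumour 3. D10Wsu102e on the opposite strand covers 14.1% of its exon bases and had between 3186 and 3866 counts, against 388 to 861 for Aldh1l2, which makes the Aldh1l2 count uncertain.

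The cytosolic members showed no separation. Shmt1 had 61.0 and 70.4 CPM in sEV tumours 3 and 4, against 72.3 and 62.0 CPM in dinutuximab tumours 3 and 4. Its log2 fold change was -0.03 ± 0.15 (SE; edgeR adjusted p = 0.989), and its sign turned under 3 alternatives, with total-count scaling (0.01), without dinutuximab tumour 3 (0.08) and without sEV tumour 3 (0.06). Mthfd1, which joins 3 cytosolic folate activities in 1 protein, had 112 and 126 CPM in sEV tumours 3 and 4, against 125 and 127 CPM in dinutuximab tumours 3 and 4. Its log2 fold change was -0.08 ± 0.13 (SE; edgeR adjusted p = 0.960), between -0.163 without sEV tumour 4 and -0.009 without sEV tumour 3. For both genes the fold change was smaller than its SE. On the opposite strand Smcr8 covers 4.74% of the Shmt1 exon bases and had between 935 and 1170 counts. The Shmt1 count thus also depends on the strand setting.

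**Figure D2:**
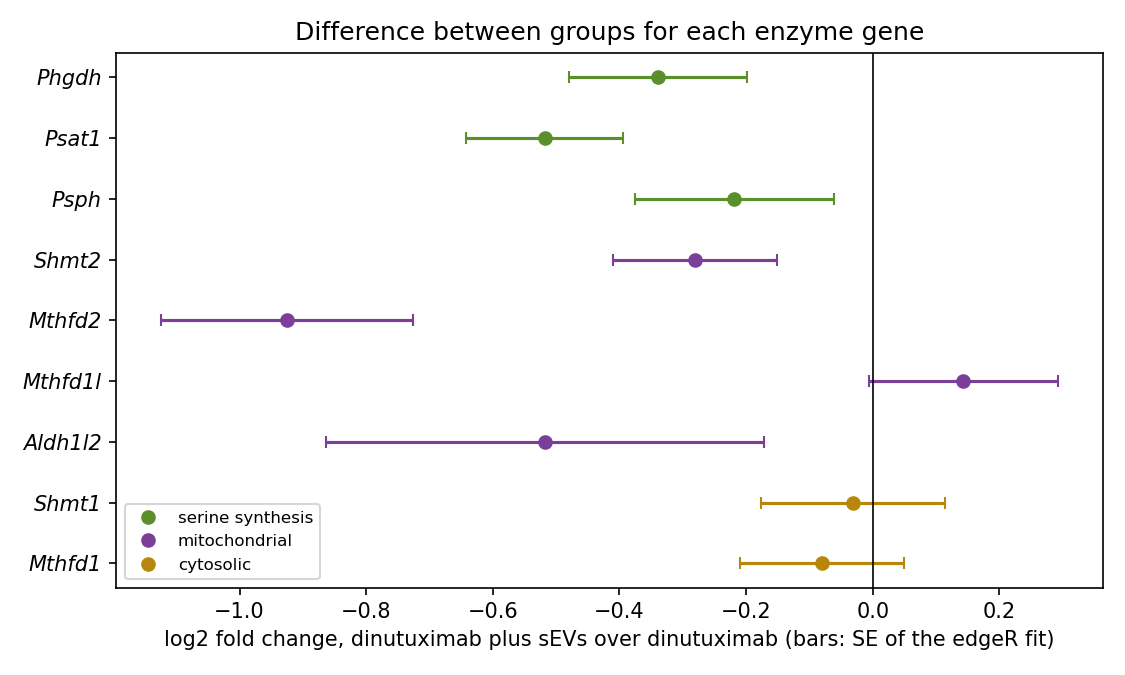
Log2 fold change of each enzyme gene, dinutuximab plus sEVs over dinutuximab, with bars of 1 SE from the edgeR fit and n = 2 tumours per group. Mthfd2 lies at -0.93 and Psat1 at -0.52, Mthfd1l alone lies above 0, and none of the 9 passed the adjusted test.

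Set side by side by compartment, the median log2 fold change was -0.40 over the 4 mitochondrial members, -0.06 over the 2 cytosolic members, -0.34 over the 3 synthesis members and -0.28 over all 9, beside 0.00 over all genes tested. The mitochondrial median was -0.01 without dinutuximab tumour 4 and -0.68 without dinutuximab tumour 3. The mitochondrial members did not move as a block, since Mthfd2 and Shmt2 separated the groups and Mthfd1l and Aldh1l2 did not.

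Within each tumour, the summed level of the 4 mitochondrial members exceeded that of the 2 cytosolic members. The sums hold 4 genes against 2, so their ratio depends on the number of genes as well as on their levels. Gene by gene, Shmt2 and Mthfd1l each lay above Shmt1 and Mthfd1 in every tumour. Mthfd2 and Aldh1l2 each lay below Mthfd1 in every tumour. The ratio was 3.56 and 2.84 in sEV tumours 3 and 4, against 3.20 and 3.87 in dinutuximab tumours 3 and 4, all on the RPKM scale. These ratios overlapped between the groups. The mitochondrial sum itself was 146 and 132 RPKM in the sEV tumours, against 150 and 172 RPKM in the dinutuximab tumours, without overlap, and the cytosolic sum was 41.0 and 46.4 RPKM in the sEV tumours, against 46.8 and 44.5 RPKM in the dinutuximab tumours, with overlap. On the log2 scale the mitochondrial to cytosolic ratios averaged 1.67 ± 0.23 with sEVs and 1.82 ± 0.19 without (SD, n = 2 each). The difference was -0.15 (two-sided exact permutation p = 0.667). With 2 tumours against 2, the smallest p such a test can give is 0.333, and over the 8 ratios computed the adjusted p was 0.762 or more.

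The sum was carried by Shmt2, between 51.5% and 56.4% of it in every tumour, and by Mthfd1l. Mthfd1l made up 39.8% and 34.7% of the mitochondrial sum in sEV tumours 3 and 4, against 30.5% and 28.1% in dinutuximab tumours 3 and 4. Mthfd2 made up 6.86% and 9.58% in the sEV tumours, against 11.8% and 14.7% in the dinutuximab tumours. For both shares the groups did not overlap. The shares are parts of the same sum and so depend on each other, and the Mthfd1l level itself overlapped between the groups.

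Ratios of single enzymes to their cytosolic counterparts differed from one another. Mthfd2 over Mthfd1 was 0.396 and 0.446 in sEV tumours 3 and 4, against 0.626 and 0.890 in dinutuximab tumours 3 and 4. Both sEV tumours lay below both dinutuximab tumours, with a log2 difference of -0.83 (two-sided exact permutation p = 0.333, the smallest possible). Shmt2 over Shmt1 was 4.78 and 3.94 in the sEV tumours, against 4.54 and 5.87 in the dinutuximab tumours, and the groups overlapped. Mthfd1l over Mthfd1 was 2.30 and 1.61 in the sEV tumours, against 1.62 and 1.70 in the dinutuximab tumours, where sEV tumour 3 alone stood apart.

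Ratios to enzymes outside the 9 were taken for the same steps. Mthfd2 exceeded Mthfd2l, a second mitochondrial enzyme of its step, 7.45-fold and 9.45-fold in sEV tumours 3 and 4, against 11.7-fold and 16.2-fold in dinutuximab tumours 3 and 4. These groups did not overlap. Aldh1l2 exceeded its cytosolic relative Aldh1l1 11.8-fold and 5.64-fold in the sEV tumours, against 8.65-fold and 12.6-fold in the dinutuximab tumours, but Aldh1l1 had only between 27 and 46 counts. Chosen after the values were seen, Mthfd2 over Mthfd1l, the step that follows it in mitochondria, was 0.173 and 0.276 in the sEV tumours, against 0.386 and 0.525 in the dinutuximab tumours. Psat1 over Phgdh, likewise chosen afterwards, overlapped, at 0.874 and 0.712 in the sEV tumours against 0.942 and 0.840 in the dinutuximab tumours.

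**Figure D3:**
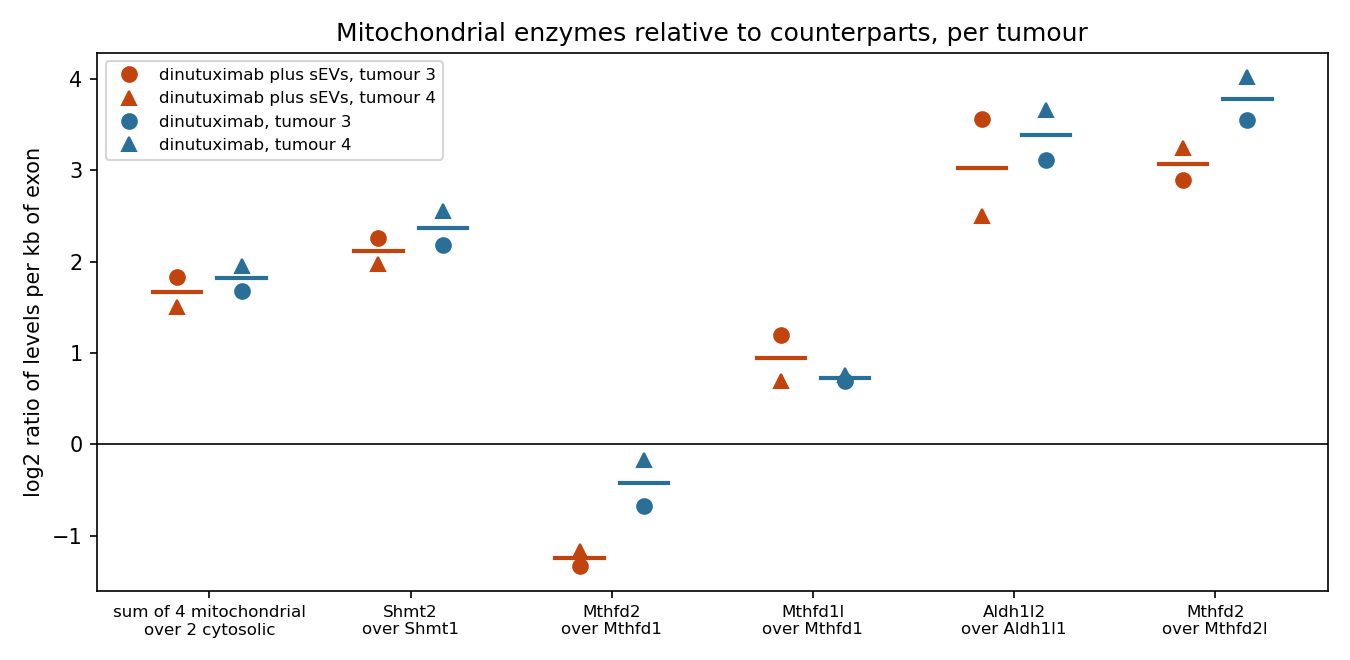
Log2 ratio of levels per kilobase of exon in each tumour, for the mitochondrial sum over the cytosolic sum and for single enzyme pairs, with sEV tumours left of dinutuximab tumours and bars for the mean of 2. The summed ratio overlaps between the groups, at 1.83 and 1.51 with sEVs against 1.68 and 1.95 without, whereas Mthfd2 over Mthfd1 does not.

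In the rest of the pathway, values lay on both sides of 0. Of 12 tested other folate cycle enzymes, 6 had negative and 6 positive values, with a median log2 fold change of 0.01. Ggh, a hydrolase of folate polyglutamates, had 0.38 ± 0.15 (SE), Mtrr, which reactivates methionine synthase, had -0.25 ± 0.16, and Mthfd2l had -0.19 ± 0.19. Folate and serine transporters had a median of 0.04 over 10 genes, with Slc1a4, a neutral amino acid transporter, at -0.78 ± 0.29, the folate receptor gene Folr2, which macrophages also express, at 0.30 ± 0.13, and Slc38a2 at -0.18 ± 0.13. Each of these genes had an edgeR adjusted p of 0.829 or more.

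Genes of glycine cleavage and other uses of serine had a median of -0.03 over 11 tested. The 3 of lowest p in this list were Sptlc2, a subunit of the enzyme that starts sphingolipid synthesis (0.25 ± 0.16), the serine racemase gene Srr (0.25 ± 0.17) and Gcat (-0.22 ± 0.20). Purine and thymidylate synthesis genes, which draw on one-carbon units, had a median of 0.00 over 14, with 7 negative and 7 positive. Prps2, a phosphoribosyl pyrophosphate synthetase, had 0.40 ± 0.14, Adsl 0.19 ± 0.13 and Impdh2 -0.18 ± 0.14. In these lists too, 0 genes passed the edgeR test.

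The methionine cycle and transsulfuration list had a median of 0.04 over 7 tested genes, and 1 member stood far from it. Cth, which makes cysteine from cystathionine, had 0.420 and 0.277 CPM in sEV tumours 3 and 4, against 1.21 and 1.80 CPM in dinutuximab tumours 3 and 4, a log2 fold change of -2.10 ± 0.47 (edgeR adjusted p = 0.463) at very low levels. Mat2a, which makes S-adenosylmethionine, had 0.26 ± 0.12 and Ahcy 0.17 ± 0.12. Proliferation genes had a median of 0.00 over 15, with 9 negative and 6 positive, and among them Rrm2 had 0.26 ± 0.16, Pcna 0.16 ± 0.14 and Mki67 -0.17 ± 0.20. The median of the proliferation list thus lay close to that of all genes.

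The list of the ATF4 programme outside the pathway held 21 genes. Vldlr and Stc2, with at most 3 counts in every library, were not tested. All 19 tested genes had negative values, against 49.7% of all genes, with a median log2 fold change of -0.46. Of the 19, 0 passed the edgeR test. Of these 19, 13 had an unadjusted p under 0.05 on the lower side, against 3.1% of all genes, and 17 lay lower without overlap, against 16.5%. Asns, the asparagine synthetase, had 51.9 and 66.6 CPM in sEV tumours 3 and 4, against 114 and 130 CPM in dinutuximab tumours 3 and 4 (log2 fold change -1.04 ± 0.16, edgeR adjusted p = 0.360). Trib3, a pseudokinase, had -0.94 ± 0.16 and Atf3 had -1.10 ± 0.21. Atf4 itself, which is regulated largely at translation, had 295 and 254 CPM in the sEV tumours, against 308 and 294 CPM in the dinutuximab tumours, and the groups overlapped (-0.13 ± 0.13, edgeR adjusted p = 0.934). Asns, Trib3 and Atf3 were known from earlier results of these data when the list was written, so its direction is no independent evidence.

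**Figure D4:**
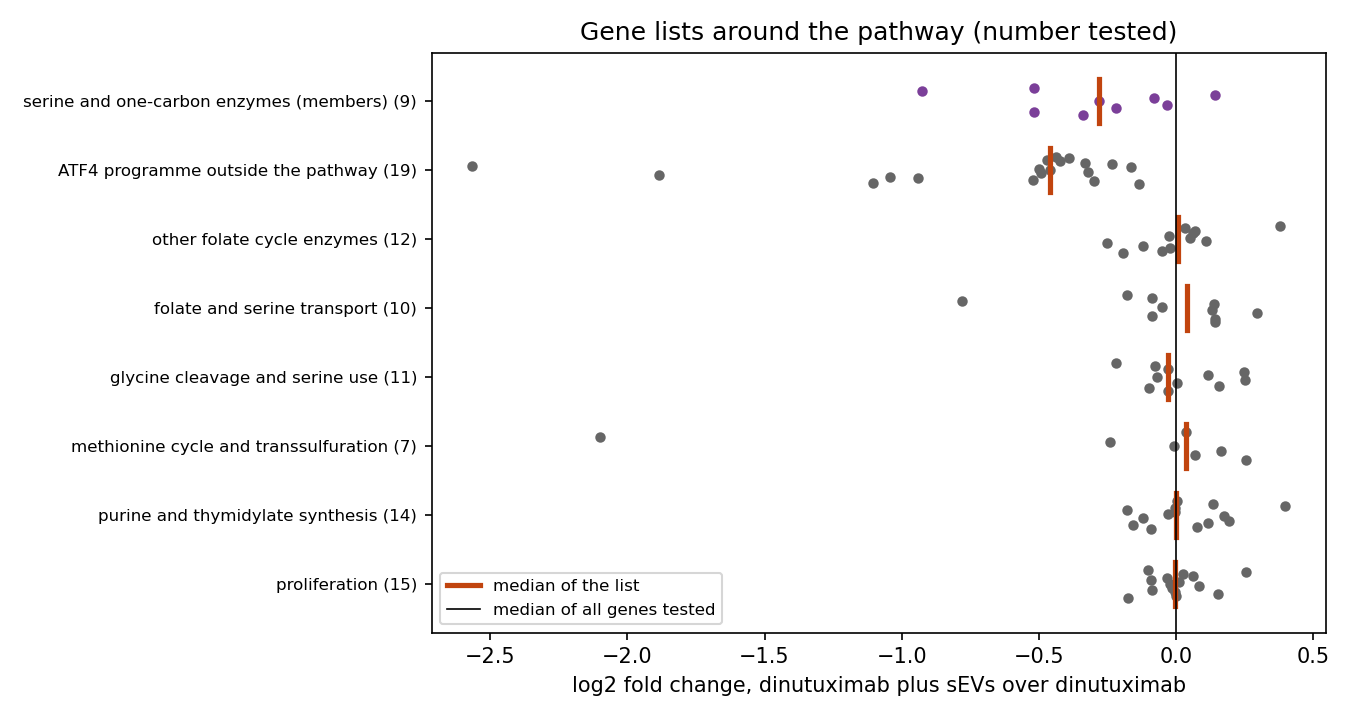
Log2 fold change of each tested gene, dinutuximab plus sEVs over dinutuximab, for the 9 enzymes and for 7 lists around the pathway, with the median of each list as an orange bar and the median of all genes as a line. The 9 enzymes centre at -0.28 and the ATF4 programme at -0.46, and the other lists centre between -0.03 and 0.04.

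Summed levels of several marker lists did not overlap between the same groups, although none of their genes passed the edgeR test. Their part in the values of the enzymes was not tested. Immediate early genes, which also respond to tissue handling, were negative in 8 of 9, with a summed level of 445 and 451 CPM in the sEV tumours, against 548 and 537 CPM in the dinutuximab tumours. Atf3 is in this list and in the ATF4 list. Macrophage markers were positive in 7 of 8, at 1742 and 1783 CPM in the sEV tumours, against 1499 and 1549 CPM in the dinutuximab tumours. Endothelial markers were negative in 6 of 6, at 109 and 101 CPM in the sEV tumours, against 131 and 146 CPM in the dinutuximab tumours. None of these 23 markers was at 0 in all libraries. Of all genes tested, 49.7% had negative values. Without overlap, 6 of 9 immediate early genes and 5 of 6 endothelial markers lay lower, against 16.5% of all genes. Likewise 5 of 8 macrophage markers lay higher, against 18.1% of all genes.

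Neuroblastoma markers summed to 344 and 334 CPM in the sEV tumours, against 306 and 327 CPM in the dinutuximab tumours. Of the 4 tested, 3 were positive and 1, Gata3, was negative, at -0.64 ± 0.34. The sum rested mainly on Hand2 and Mycn, and Mycn overlapped between the groups (0.02 ± 0.15). Fibroblast markers summed to 886 and 739 CPM in the sEV tumours, against 627 and 616 CPM in the dinutuximab tumours, but 3 of 6 were positive and 3 negative. Among them Dcn had a log2 fold change of 0.54 ± 0.22 and Col3a1 0.37 ± 0.14, whereas Col1a2 had -1.57 ± 0.43 and Col1a1 -0.44 ± 0.17. Red blood cell markers, all 5 positive, summed to 70.0 and 42.3 CPM in the sEV tumours, against 35.0 and 21.2 CPM in the dinutuximab tumours. These 5 all lay higher without overlap, against 18.1% of all genes, with a median log2 fold change of 1.07, and 0 passed the edgeR test. Skeletal muscle markers summed to 5.69 and 2.88 CPM in the sEV tumours, against 7.44 and 9.25 CPM in the dinutuximab tumours. All 4 tested were negative, with a median of -1.26, but Acta1 and Ckm overlapped between the groups. Myh1 had -2.65 ± 0.46 (edgeR adjusted p = 0.383), from 5 and 8 counts in the sEV tumours against 38 and 37 in the dinutuximab tumours. Acta1 had 19 and 3 counts in the sEV tumours, against 3 and 71 in the dinutuximab tumours. T and NK cell markers summed to 4.20 and 11.1 CPM in the sEV tumours, against 4.44 and 6.51 CPM in the dinutuximab tumours. Adipocyte markers summed to 29.9 and 26.6 CPM in the sEV tumours, against 28.2 and 32.8 CPM in the dinutuximab tumours, with 2 of 4 adipocyte markers at 0 in all libraries. The part of these cell types in the values of the enzymes was not tested.

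The genes most like a member over the 4 tumours were found by the root mean square difference of centred log2 CPM values, among 9084 genes at 10 CPM or more. For Mthfd2 they were Hk2, the hexokinase gene (0.0967), Egr1 (0.106) and Cxcr4 (0.114). For Psat1 they were the annotated microRNA locus Mir6236 (0.0518), Nt5dc2 (0.0542) and Car12 (0.0550). For Shmt2 they were Rps6ka1 (0.0192), Tnfrsf1b (0.0201) and Usp12 (0.0209), and for Phgdh they were Cdk17 (0.00772), Rnf220 (0.0108) and Pcyt1b (0.0140). With 4 points and many genes, such closeness is a description only. None of these 12 nearest genes was another of the 9 enzymes. With 9084 genes compared, that absence cannot show whether the enzymes vary together.

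On GRCm38 the members lie on 7 chromosomes, and all are protein-coding. Phgdh (ENSMUSG00000053398) spans 98313170 to 98339990 on chromosome 3, Psph (ENSMUSG00000029446) 129765558 to 129787449 on chromosome 5, Mthfd2 (ENSMUSG00000005667) 83305691 to 83325908 on chromosome 6, Shmt1 (ENSMUSG00000020534) 60788104 to 60811718 on chromosome 11 and Psat1 (ENSMUSG00000024640) 15904678 to 15947337 on chromosome 19, all on the minus strand. Chromosome 10 holds Shmt2 (ENSMUSG00000025403) at 127517123 to 127522444 and Aldh1l2 (ENSMUSG00000020256) at 83487450 to 83534140 on the minus strand, and Mthfd1l (ENSMUSG00000040675) at 3973118 to 4167081 on the plus strand. On chromosome 12, Mthfd1 (ENSMUSG00000021048) occupies 76255298 to 76319803 of the plus strand. The promoter windows of Mthfd2, Psat1 and Shmt1 lie inside these spans, because GENCODE annotates transcripts that begin upstream of the RefSeq starts.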

How the data were processed

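Raw counts per Ensembl gene for 43432 genes in 4 libraries were deposited, once as a series table and once per sample, and the 173728 values agreed between the tables. Per the submitters' processing notes STAR, SAMtools, HTSeq and mm10 were used; their versions, the annotation, the counting mode and the strand setting are not given in the sources used here. Names, coordinates and exon lengths came from GENCODE M21 (GRCm38), which named 42548 IDs.

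The test was the quasi-likelihood F test of edgeR 4.0.16 in R 4.3.3 on genes kept by filterByExpr (13823), with TMM factors of 0.976 to 1.02, group as the only term, and Benjamini-Hochberg adjustment over all genes at 0.05. CPM uses TMM-adjusted library sizes and RPKM divides it by the union of exons in kb. SE is the size of the log2 fold change divided by the root of F. Alternatives were DESeq2 1.42.0, limma-voom (limma 3.58.1), 4 other scalings or library sizes, 2 other filters, the label number as a block, and leaving out each library. The fit was tested on simulated data.

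The members and lists were chosen with earlier results of these data known. Named were all 9 members, the 3 genes of lowest p in each pathway list, Asns, Atf4, and the 3 nearest genes of 4 members; marker genes, overlapping genes, Aldh1l1 and Gm7901 were named after their values were seen. Some members of the marker lists are not reported here.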

Additional observations from a re-analysis of the deposited data

How the results depend on the processing

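With edgeR as described, 0 genes and 0 of the 9 enzymes were called; DESeq2 called 55 and 2, edgeR with no low-count filter 262 and 2, and leaving out each library between 0 and 316 genes and between 0 and 1 enzymes. Without an sEV tumour the counts were 132 (sEV tumour 3) and 316 (sEV tumour 4), and without a dinutuximab tumour 0. In these fits the tumour left alone in its group is taken to vary as the other group does. The label number as a replicate block gave 67 genes and 1 enzyme, Mthfd2. Over genes, same-numbered tumours deviated from their group means with a correlation of 0.0943, and 2 pairs sharing a number are not thereby shown to be paired. Without 1 library at a time, the median log2 fold change of the 9 enzymes ran from -0.355 to -0.205, that of the mitochondrial members from -0.68 to -0.011, that of Shmt1 from -0.138 to 0.083 (0.059 without sEV tumour 3), that of Mthfd1l from -0.048 (without sEV tumour 3) to 0.306, and that of Aldh1l2 from -1.004 to 0.217 (without dinutuximab tumour 4). Shmt1 also turned with total-count scaling (0.008), and the cause of these turns was not tested. Phgdh, Psat1, Psph, Shmt2, Mthfd1 and Mthfd2 kept their sign under all 13 alternatives. For ratios of single enzymes the length, summary and block settings give the same difference by construction, and leaving out 1 tumour of 2 cannot move it beyond the spread, so only ranges are given. On the log2 scale, without 1 library, the difference in the mitochondrial to cytosolic ratio ran from -0.311 to 0.016, in Aldh1l2 over Aldh1l1 from -0.891 to 0.176, in Mthfd1l over Mthfd1 from -0.038 to 0.47, in Shmt2 over Shmt1 from -0.435 to -0.064, in Mthfd2 over Mthfd1 from -1.083 to -0.575 and in Mthfd2 over Mthfd2l from -0.95 to -0.485; the first 3 changed sign. Depth limits Cth, Aldh1l1 and Myh1, whose counts are low.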
